A study of Mus musculus with 7 samples.

Results

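The microRNAs (miRNAs) miR-203 and miR-205 were followed in the colorectum of healthy mice and of mice with chemically induced colorectal cancer (CRC). Members were the entries of the count table whose names begin with miR-203- or miR-205-, which gave 4 of 1915 entries: mmu-miR-203-3p, mmu-miR-203-5p, mmu-miR-205-5p and mmu-miR-205-3p, written below without the prefix for mouse. All 4 passed the filter on low counts, which kept 878 entries. All mice were pathogen-free wild-type C57BL/6 females, 7 weeks old in the labels. The 3 CRC mice (M4, M5 and M6) had an injection of azoxymethane (AOM), a colon carcinogen, at a dose of 10 mg per kg. Dextran sodium sulfate (DSS), a polymer toxic to the gut lining, followed 5 days later at 2.5% in their water over 7 days, and then plain water over 14 days, in repeated cycles. They are labelled stage T1, day 17, with no start of that count that could be settled from the labels. The 3 healthy mice (M1, M2 and M3) had received 0.9% NaCl solution in place of AOM. The labels do not say in so many words whether these controls also drank DSS, and no group had AOM or DSS alone, so carcinogen, injury and tumour cannot be told apart. Mouse M1 has 2 libraries in the labels but 1 column in the table, which was used as 1 mouse.

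A miRNA is cut from a hairpin precursor, either arm of which (5p or 3p) can be loaded into a silencing complex, where bases 2 to 8, the seed, pair with messenger RNAs. Both miRNAs are best known from stratified squamous epithelia such as the skin. There miR-203 is switched on as cells leave the basal layer and stop dividing, and miR-205 is abundant in basal and progenitor cells. miR-205 also acts with the miR-200 family on ZEB1 and ZEB2, repressors of the epithelial state. The lining of the colon is a single layer of columnar cells.

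The mature sequences are shown because the table counts each arm on its own and because the seeds set the members apart. Capitals mark the seed, and the sequences are those of RefSeq for GRCm38.p6, which matched all 4 members by name and letter for letter.
miR-203-3p: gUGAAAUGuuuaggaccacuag
miR-203-5p: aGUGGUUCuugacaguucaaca
miR-205-5p: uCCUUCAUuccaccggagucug
miR-205-3p: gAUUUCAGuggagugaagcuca
No 2 members share a seed, and 0 other entries of the 1915 have the seed of any member. The arms of miR-203 and miR-205-5p share no run of 14 bases with another entry on either strand. For miR-205-3p there is 1 such entry, miR-6397, which had at most 13 counts in a mouse.

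The hairpins are shown to place the arms, which are in capitals.
Mir203: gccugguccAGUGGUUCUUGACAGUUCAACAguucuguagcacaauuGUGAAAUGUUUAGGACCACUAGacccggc
Mir205: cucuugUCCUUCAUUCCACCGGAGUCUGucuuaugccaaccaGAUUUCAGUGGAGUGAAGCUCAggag
Mir203 lies on chromosome 12 from 112130880 to 112130955 on the plus strand of GRCm38. In GENCODE M21 it overlaps no other gene and sits between Aspg, which ends 3320 bases before it, and Kif26a, which starts 15252 bases after it. Mir205 lies on chromosome 1 from 193507463 to 193507530 on the minus strand. It falls inside exon 2 (193507238 to 193508899) of the long noncoding RNA gene 4631405K08Rik, which RefSeq calls Mir205hg, on the same strand. The 2 hairpins are thus on different chromosomes, and the 2 arms of a hairpin come from 1 precursor.

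Depth and likeness of the libraries bear on every value below. Total counts ran from 3206127 in M6 to 15280434 in M2, and the CRC libraries were all shallower than the healthy ones. Levels are CPM, counts relative to library size, on library sizes scaled by TMM, a method that centres the bulk of miRNAs between libraries. The TMM factors were 0.720 (M1), 0.582 (M2), 1.10 (M3), 0.948 (M4), 1.55 (M5) and 1.47 (M6). A scaled CPM is therefore not a share of all reads. The 6 profiles did not fall by group: the median absolute difference over the 878 tested miRNAs was 0.26 log2 units between M1 and M2 and 0.37 between M5 and M6. The healthy M3 differed by 0.56 from the CRC mouse M4, against 0.71 from M1 and 0.73 from M2. M4 in turn differed by 0.68 from M1 and 0.70 from M2, against 0.75 from M5 and 0.81 from M6. M1 and M2 differed from M5 and M6 by 1.03 to 1.13. The differences of the 4 members are therefore also given without M3 and without M3 and M4. In bulk tissue fewer cells of a type and less RNA per cell cannot be told apart.

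miR-203-3p, the arm known to act in skin, was among the more abundant miRNAs of every mouse. Among healthy mice its level was 1259 (M1), 1982 (M2) and 4555 CPM (M3), and among CRC mice 4511 (M4), 3541 (M5) and 3259 CPM (M6). M1 and M2 were the lowest of the 6 mice, while the healthy M3 lay level with M4 within counting error, so the groups overlapped. Which mouse is highest depends on the scaling: as a share of all reads it was M5, with 0.549% against 0.503% in M3. By count it ranked between place 37 (M5) and place 76 (M1) of the 1915 entries, and its lowest share of the reads was 0.0907%, in M1. The mean was 2599 ± 1732 CPM for the healthy group and 3771 ± 657 CPM for the CRC group (SD, n = 3 each). The difference of CRC and healthy mice was 0.54 log2 units (SE 0.49, 95% interval -0.56 to 1.63), which edgeR's quasi-likelihood test did not call (adjusted p = 0.543).

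miR-203-5p, the other arm of the same hairpin, stood far lower, with a like order of mice. Its level was 18.1 (M1), 20.8 (M2) and 37.4 CPM (M3) among healthy mice, and 44.3 (M4), 31.3 (M5) and 33.6 CPM (M6) among CRC mice. M1 and M2 were again the lowest, and M3 lay inside the CRC range. The log2 difference was 0.52 (SE 0.45, 95% interval -0.49 to 1.53), not called by edgeR (adjusted p = 0.519). The arms are not separate evidence, since they come from 1 precursor.

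miR-205-5p, the abundant arm of miR-205, had the widest range among the healthy mice of the 4 arms. M1 had 437 CPM and M2 588 CPM, but M3 had 4259 CPM. The CRC values were 2488 (M4), 1395 (M5) and 1270.1 CPM (M6). All 3 CRC mice thus lay between the healthy extremes, above M1 and M2 and below M3. M3 was 9.74-fold above M1 and 7.24-fold above M2, while M4 was 0.584 of M3. The group means were 1762 ± 2164 CPM (healthy) and 1718 ± 670 CPM (CRC; SD, n = 3 each). The log2 difference was -0.04 (SE 0.78, 95% interval -1.79 to 1.72), not called by edgeR (adjusted p = 0.985). This interval leaves room for more than 3-fold changes in either direction.

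miR-205-3p, the scarce arm, was measured with few reads. Its counts were 24, 26 and 110 in the healthy M1, M2 and M3, and 63, 3 and 11 in M4, M5 and M6. These correspond to 2.69, 2.93 and 12.1 CPM in the healthy mice, and to 10.1, 0.543 and 2.34 CPM in the CRC mice. M3 and M4 were high and M5 was at the level of 3 counts, the limit that a count of 0 would allow. The log2 difference was -0.44 (SE 0.93, 95% interval -2.52 to 1.65), not called by edgeR (adjusted p = 0.799).

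**Figure D1:**
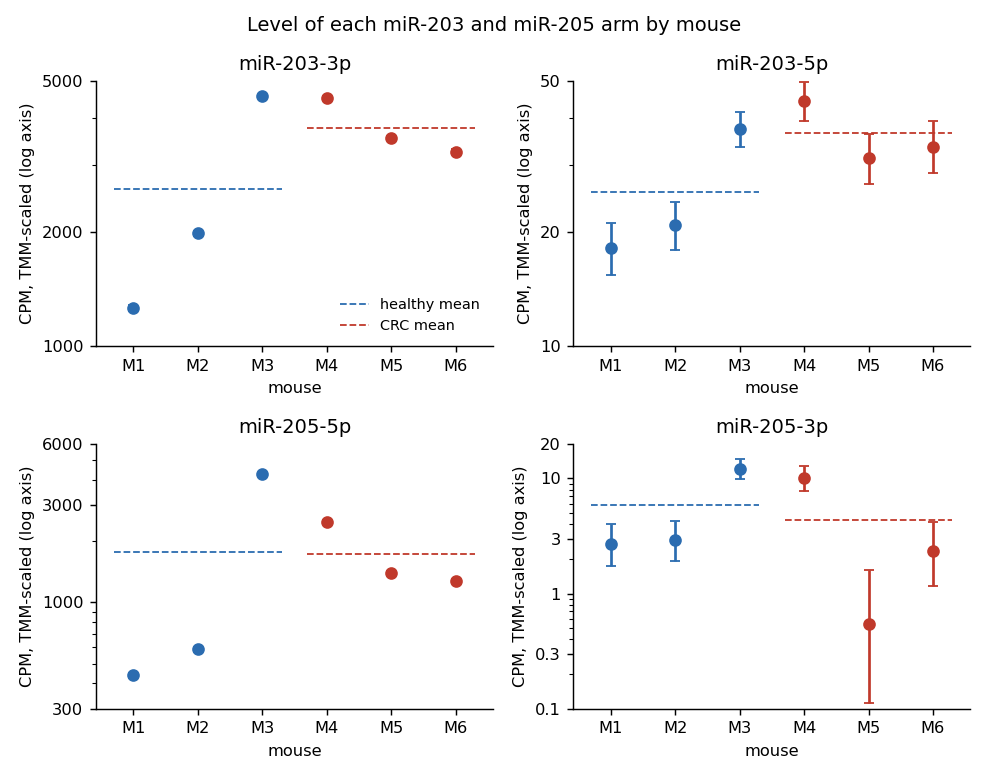
Level of each arm in each mouse, in TMM-scaled CPM on a log axis, with healthy mice in blue and CRC mice in red. Bars are exact 95% Poisson intervals of the counts, which cover counting error only, and dashes are group means. For miR-205-5p the healthy M3 (4259 CPM) stands above and M1 (437 CPM) and M2 (588 CPM) below all CRC mice.

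In all, 0 of the 4 members passed edgeR's test at an adjusted p of 0.05, against 20 of all 878 tested miRNAs, or 2.28%. At an unadjusted p under 0.05 there were also 0 members, against 23.2% of the tested miRNAs. The groups did not overlap for 0 of 4 members, against 26.5%. The median log2 difference of all tested miRNAs was -0.03. In a simulation of the CRC and healthy comparison, with counts drawn for 878 miRNAs, edgeR called 4.35% of tested miRNAs changed 2-fold and 61.7% of those changed 4-fold. The test can thus miss most 2-fold changes in 3 mice against 3.

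**Figure D2:**
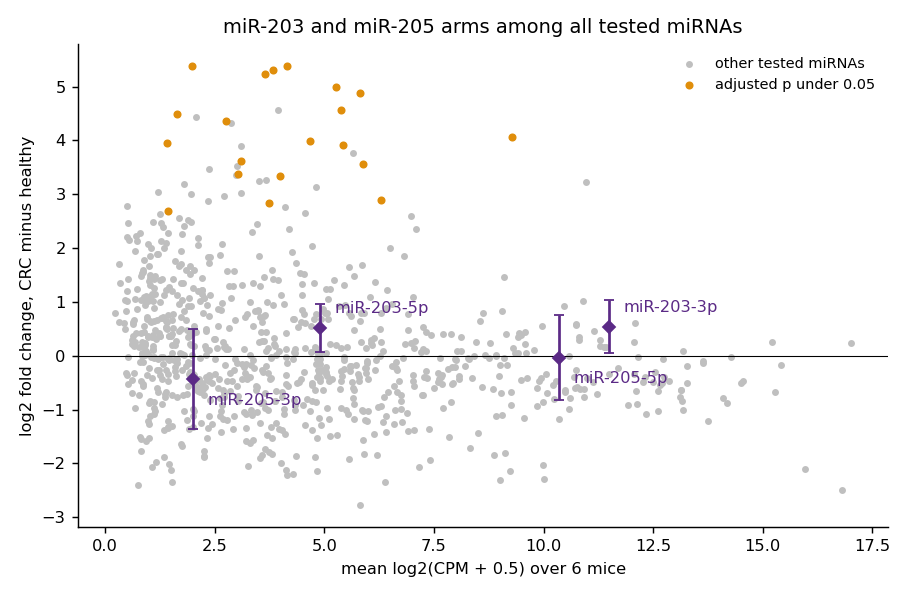
Log2 fold change of CRC against healthy mice over the mean log2(CPM + 0.5) of 6 mice, for the 878 tested miRNAs (grey), those past the adjusted threshold (orange) and the 4 members (purple, bars show ± SE). The members lie between -0.44 and 0.54, inside the spread of the grey points.

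How far the group difference rested on M3 was read from the fits without it. Without M3, miR-205-5p had a log2 difference of 1.68 (SE 0.48, adjusted p = 0.0670 in edgeR) in place of -0.04, so its direction turned. miR-203-3p had 1.14 (SE 0.41, adjusted p = 0.104 in edgeR), miR-203-5p 0.83 (SE 0.41) and miR-205-3p 0.61 (SE 1.03). That fit called 0 of the 4 members, against 5.90% of 1068 tested miRNAs. At an unadjusted p under 0.05 it held miR-203-3p and miR-205-5p, against 31.7% of tested miRNAs.

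When M1 and M2 were compared with M5 and M6, leaving out M3 and M4, miR-205-5p was higher in the CRC mice by 1.09 log2 units (SE 0.25, adjusted p = 0.00118 in edgeR). miR-203-3p was higher by 0.78 (SE 0.26, adjusted p = 0.0160 in edgeR). The scarce arms were not called: miR-203-5p had 0.45 (SE 0.31) and miR-205-3p -1.25 (SE 0.72). So 2 of 4 members were called there, against 576 of 1082 tested miRNAs, or 53.2%. A share near the background says nothing particular about these members. M3 and M4 were left out because of their profiles in these same data, as M3 was above. The adjusted p values of these fits therefore do not measure the evidence for a group difference. An exact permutation test of 2 mice against 2 could give no p below 0.333.

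**Figure D3:**
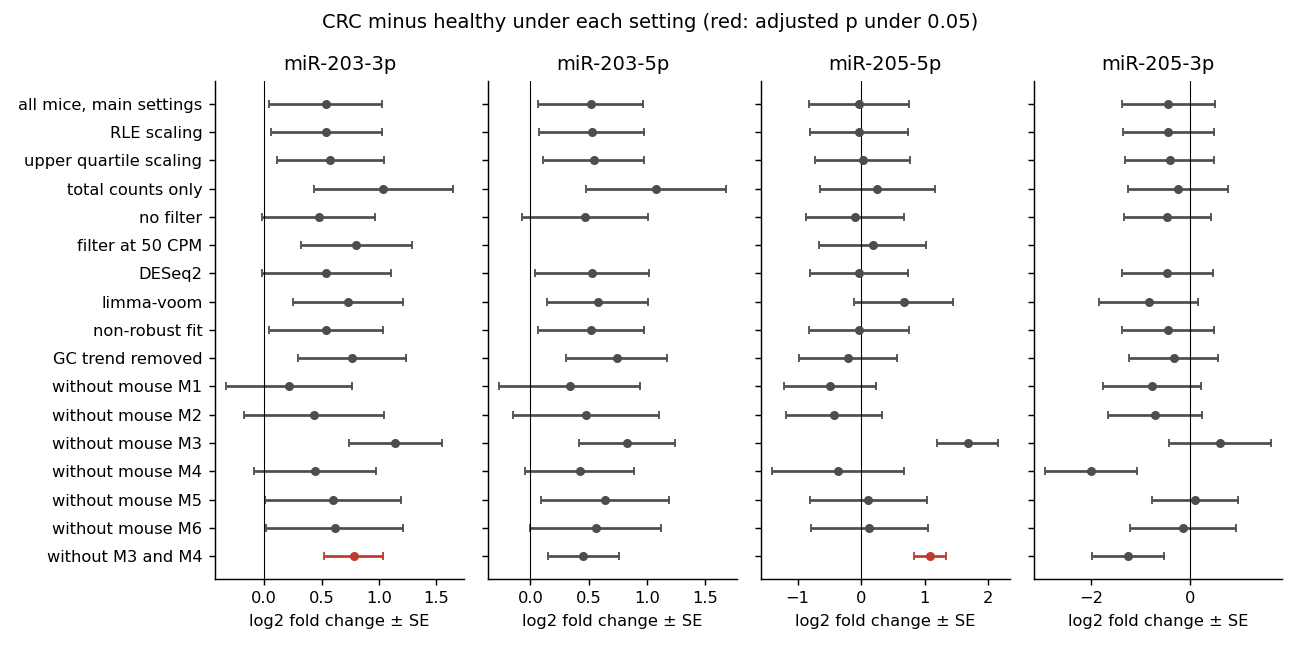
Log2 fold change ± SE of each arm under every setting, in rows, with values past an adjusted p of 0.05 in red. miR-203-3p and miR-203-5p stay to the right of 0, while miR-205-5p runs from -0.49 without M1 to 1.68 without M3; the settings with red points are those without M3 and M4.

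The pattern over mice can be stated apart from the groups. In log2 units, M3 was above the mean of M1 and M2 by 3.07 for miR-205-5p, 1.93 for miR-205-3p, 1.53 for miR-203-3p and 0.93 for miR-203-5p. The median over all tested miRNAs was -0.04, and 12 of 878 had a larger gap than miR-205-5p, against 69 for miR-203-3p. The range within the healthy group was 3.28 log2 units for miR-205-5p, and 15 of 878 tested miRNAs had a wider one. It was 1.85 for miR-203-3p, with 111 wider, against a median of 0.90. M4 differed from M3 by -0.01 for miR-203-3p, 0.24 for miR-203-5p and -0.78 for miR-205-5p.

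Arm balance, a ratio inside a library that needs no scaling, was strongly one-sided for both hairpins. For miR-203 the 3p arm is the major one. The 5p arm made up 1.42% of the reads of both arms in M1, 1.04% in M2 and 0.813% in M3, and 0.972% in M4, 0.877% in M5 and 1.02% in M6. M1 alone stood out: its exact binomial interval, 1.21% to 1.65%, lies above that of M2, 0.896% to 1.20%. The log2 ratio of 3p to 5p averaged 6.54 ± 0.41 (healthy) and 6.69 ± 0.11 (CRC; SD, n = 3 each). The difference of 0.16 had an exact two-sided permutation p of 0.7, where 3 mice against 3 can give no p below 0.1.

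For miR-205 the 5p arm is the major one, the opposite side of the hairpin. The 3p arm made up 0.610% of the reads of both arms in M1, 0.495% in M2 and 0.284% in M3. It was 0.403% in M4, 0.0389% in M5 (exact binomial interval 0.00803% to 0.114%, from 3 reads) and 0.184% in M6 (0.0918% to 0.329%, from 11 reads). M5 was thus below every other mouse except M6 beyond counting error, and M4 lay among the healthy mice. In reads, M5 had 2567 of miR-205-5p for each of miR-205-3p (interval 878 to 12452), against 163 in M1. The log2 ratio averaged 7.80 ± 0.59 (healthy) and 9.35 ± 1.61 (CRC; SD, n = 3 each), with an exact two-sided permutation p of 0.2. The difference of 1.56 rested partly on single mice: it was 0.68 without M5, 2.26 without M4, 1.88 without M3 and 2.59 without M3 and M4. This ratio was added after the counts were seen. Intervals cover only the counting error of reads within 1 library. Reads were copied by PCR without molecular identifiers, so they are not independent molecules and the intervals may be too narrow.

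The members were next set against miR-200c-3p, a general epithelial miRNA, in the same library. For each read of miR-200c-3p there were 0.577 reads of miR-203-3p in M1, 1.05 in M2 and 1.63 in M3. In the CRC mice there were 1.38 in M4, 1.54 in M5 and 1.12 in M6. M1 was the lowest and M3 the highest. The difference in log2 ratio between CRC and healthy mice was 0.43 (exact permutation p = 0.5), 0.78 without M3 and 0.032 without M1.

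For miR-205-5p there were 0.200 reads per read of miR-200c-3p in M1, 0.312 in M2 and 1.52 in M3. In the CRC mice there were 0.762 in M4, 0.606 in M5 and 0.438 in M6. All CRC mice lay between M2 and M3. The log2 difference was 0.36 (exact permutation p = 0.8), 1.23 without M3 and -0.23 without M1. With the summed 10 arms of the miR-200 family as the denominator, the differences were 1.27 for miR-203-3p (exact permutation p = 0.3) and 1.21 for miR-205-5p (exact permutation p = 0.4). That sum ran from 48606 to 64318 CPM in CRC mice and from 64384 to 95857 CPM in healthy mice.

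The balance of miR-205-5p to miR-203-3p was 0.347, 0.297 and 0.935 in the healthy M1, M2 and M3, and 0.552, 0.394 and 0.390 in M4, M5 and M6. M3 and M4 carried the most miR-205 per miR-203, and M2 the least. The log2 difference between the groups was -0.06 (exact permutation p = 1) and 0.45 without M3. Of the 5 ratios compared, 0 had groups that did not overlap, and the adjusted p over the 5 ratios was 1 for each of these permutation tests.

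**Figure D4:**
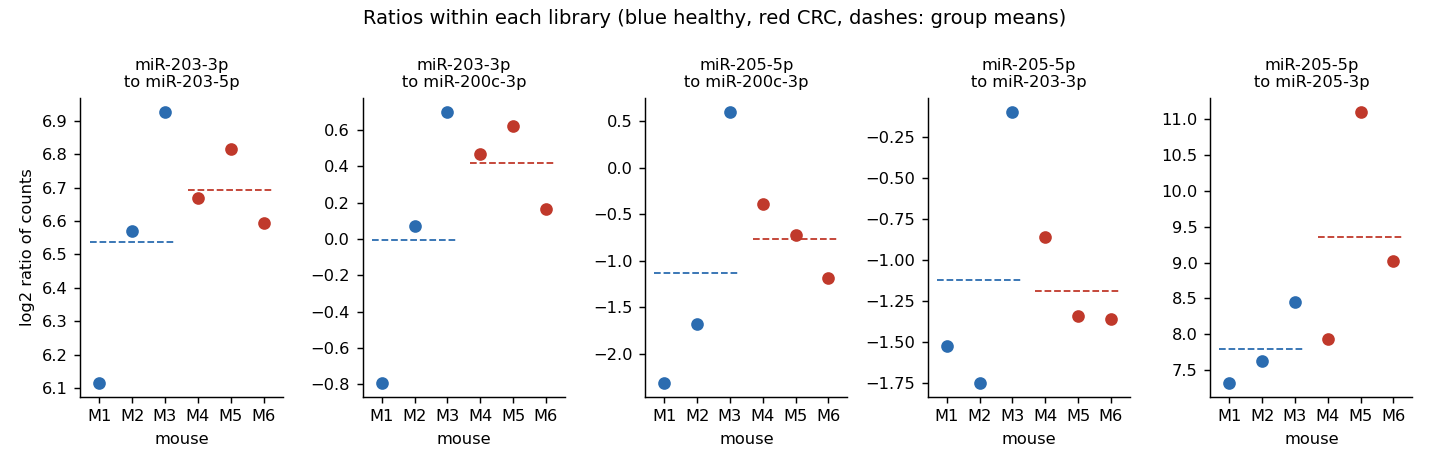
Log2 ratio of counts in each library for the 5 ratios, with healthy mice in blue, CRC mice in red and dashes at group means. In the ratios of miR-205-5p to miR-200c-3p and to miR-203-3p, the healthy M3 is the highest of the 6 mice; in that of miR-205-5p to miR-205-3p, M5 is.

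Markers of other cell types were read beside the members. Over all tested miRNAs, edgeR called 2.28%, and 23.2% had an unadjusted p under 0.05. The skeletal muscle list held 1 miRNA at that unadjusted threshold, which was lower in CRC mice. The list of skeletal muscle miRNAs had 4 tested of 9, with 0 called, a median log2 difference of 0.46 and a summed level of 46.5 to 276.5 CPM (healthy) and 44.9 to 181.1 CPM (CRC). Of its 9 entries, 4 had 0 counts in some mouse, and only miR-208b-5p was at 0 in all mice. miR-206-3p, a miRNA of skeletal muscle, had 138 CPM in M3 and 136 CPM in M4. In M1, M2, M5 and M6 it had 2.46, 2.25, 1.99 and 24.0 CPM. M3 and M4, the mice highest in miR-205-5p, were also those highest in miR-206-3p. The other tested members were miR-133b-3p (-1.47, SE 0.60), miR-499-5p (1.23, SE 1.09) and miR-486a-5p (0.75, SE 0.55). miR-133b-3p had 131.8 CPM in M3 but 41.1 CPM in M4, against 44.6 CPM in M1 and 40.4 CPM in M2. miR-499-5p was lowest in M4 (0.160 CPM) and highest in M5 (14.5 CPM). miR-486a-5p was highest in M4, at 3.52 CPM, with 2.75 CPM in M3 and 2.76 CPM in M6. The high level in both M3 and M4 was thus that of miR-206-3p and not of the whole list. The part of muscle content in the levels of miR-205 was not tested.

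White blood cell miRNAs were uneven among the healthy mice. The summed level of this list (9 tested, 0 called, 0 at an unadjusted p under 0.05, median log2 difference 0.05) was 5485 (M1), 4835 (M2) and 17436 CPM (M3), and 8110 to 10145 CPM in the CRC mice. Much of the sum in M3 came from 1 member, miR-142a-3p, which is found across blood lineages. It stood at 904 (M1), 536 (M2) and 9953 CPM (M3), with CRC mice from 3181 to 5362 CPM. The lymphocyte miRNA miR-150-5p (-0.34, SE 0.49) and the inflammation-induced miR-146a-5p (-0.42, SE 0.42) were also highest in M3, at 1909 and 1467 CPM. Both were lowest in M5, at 610 and 643 CPM. miR-223-3p of myeloid cells had -0.01 (SE 0.46) and was highest in M3 too, at 2455 CPM, with 2361 CPM in M4. The part of blood cells in the pattern of miR-205 was not tested.

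Smooth muscle miRNAs ran the other way. Their summed level (9 tested, 0 called, 9 at an unadjusted p under 0.05 against 23.2% of all tested miRNAs, median log2 difference -1.88) was 577568 (M1), 825017 (M2) and 191184 CPM (M3), and 44704 to 218874 CPM in the CRC mice. These scaled sums are not shares of all reads. The TMM factors raise them in M1 and M2 and lower them in M5 and M6, which widens the gap. miR-143-3p had -2.11 (SE 0.54), miR-145a-5p -2.48 (SE 0.84), miR-1a-3p -2.30 (SE 0.57) and miR-145a-3p -1.84 (SE 0.62). miR-1a-3p was placed in this list but is a miRNA of muscle in general, not of smooth muscle alone. Unlike miR-206-3p, it was lower in M3 (1091 CPM) and M4 (863 CPM) than in M1 (3135 CPM) and M2 (3459 CPM). In M5 and M6 it had 326 and 377 CPM. M1 and M2, the mice lowest in miR-203-3p and miR-205-5p, were thus those highest in smooth muscle miRNAs. The part of muscle content in the levels of the members was not tested.

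Epithelial lists gave no call at the adjusted threshold, which 2.28% of all tested miRNAs passed. At an unadjusted p under 0.05 in edgeR, 0 of the general list and 3 of the intestinal list, all lower, passed, against 23.2% of all tested miRNAs. In the general epithelial list (13 tested, 0 rose, 0 fell, median -0.42), miR-200a-3p had a log2 difference of -0.67 (SE 0.33), miR-200b-3p -0.10 (SE 0.32), miR-141-3p -1.02 (SE 0.46) and miR-429-3p -0.49 (SE 0.35). Of the 13, 4 had a positive difference, among them miR-96-5p (0.83, SE 0.45) and miR-200c-3p (0.30, SE 0.36). In the intestinal epithelial list (10 tested, 0 rose, 0 fell, median -0.86), miR-192-5p had -0.18 (SE 0.44), miR-194-5p -0.88 (SE 0.43), miR-215-5p -0.84 (SE 0.78) and the secretory cell miRNA miR-375-3p -0.47 (SE 0.47). The summed intestinal list had 49812 to 126090 CPM (healthy) and 41408 to 103666 CPM (CRC), so the tissue carried its columnar markers in every mouse.

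The name squamous epithelium was checked on 10 other miRNAs described in skin or other stratified epithelia. All 10 were tested, 0 rose and 0 fell, and 1 was higher at an unadjusted p under 0.05, where the share over all tested miRNAs was 23.2%. The median log2 difference was -0.21. Its abundant members are found in many cell types: miR-24-3p (-0.64, SE 0.47), miR-27b-3p (-0.30, SE 0.34) and miR-378a-3p (-0.90, SE 0.42). miR-31-5p, induced in wounded and inflamed epithelia, stood at 87.2 (M1), 150.4 (M2) and 3771 CPM (M3), and at 19829 (M4), 12117 (M5) and 5463 CPM (M6). Its log2 difference was 3.22 (SE 1.27, adjusted p = 0.169 in edgeR). It shared with the members the gap between M3 and the other healthy mice, but its CRC mice all lay above M3. These lists hold no miRNA found in squamous cells only, so a squamous source of miR-203 or miR-205 was not tested.

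**Figure D5:**
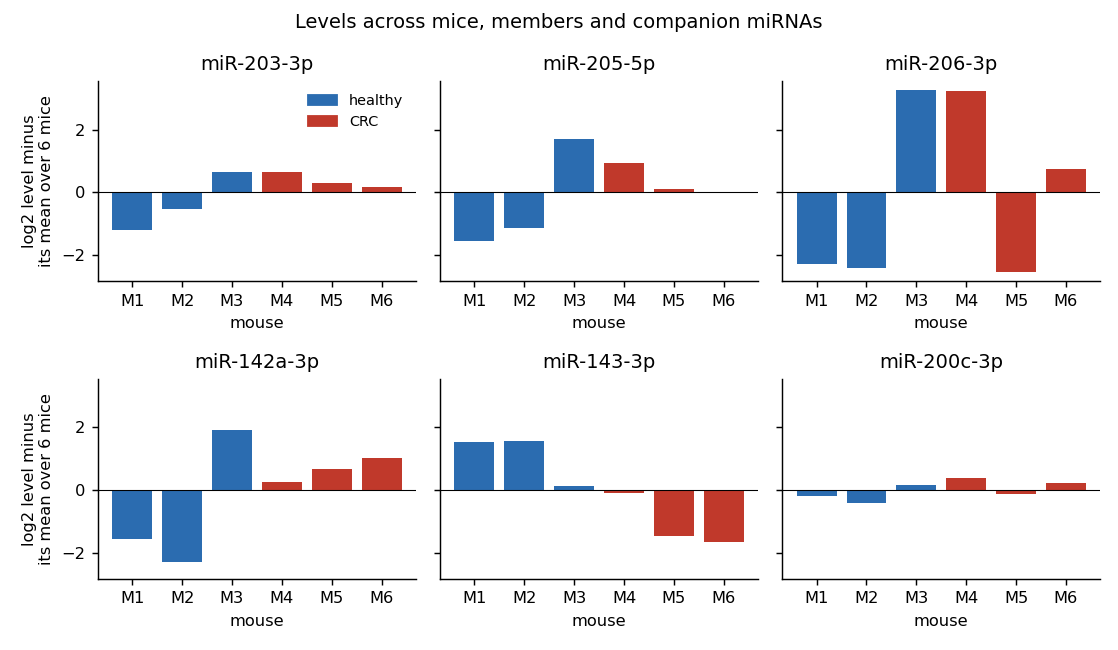
Log2 level minus its mean over 6 mice for miR-203-3p, miR-205-5p and 4 companion miRNAs, in bars from 0 (healthy blue, CRC red). miR-205-5p, miR-206-3p and miR-142a-3p are all low in M1 and M2 and high in M3, miR-143-3p is high in M1 and M2, and miR-200c-3p varies least of the 6.

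The miRNAs whose pattern over the 6 mice was most like that of a member were found by the root-mean-square difference of log2 levels, each centred on its mean. For miR-203-3p the nearest were miR-132-5p (0.18 log2 units), miR-96-5p (0.24), miR-92a-3p (0.24), miR-449a-5p (0.26) and its own 5p arm (0.26). The nearest, miR-132-5p, had 26.5, 36.5 and 71.6 CPM (healthy) and 87.6, 69.7 and 76.3 CPM (CRC). miR-96-5p had 293, 298 and 661 CPM (healthy) and 870, 709 and 639 CPM (CRC). Both are low in M1 and M2 only, like miR-203-3p.

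For miR-205-5p the nearest were miR-190a-5p (0.36 log2 units), miR-135b-3p (0.39), miR-150-3p (0.42), miR-675-3p (0.43) and miR-132-3p (0.44). miR-190a-5p had 64.0, 68.9 and 424 CPM (healthy) and 246, 252 and 226 CPM (CRC), with M3 highest as for miR-205-5p. miR-135b-3p and miR-675-3p were near the detection limit in M1 and M2: miR-135b-3p had 0 counts in both. In M3 to M6 miR-135b-3p had only 1.09 to 2.31 CPM, so its place depends on the 0.5 added to CPM. miR-203-3p and miR-205-5p differed by 0.54 from each other, place 101 for miR-203-3p and place 12 for miR-205-5p among the tested miRNAs. The arms of miR-205 differed by 1.08. These are descriptions over 6 libraries that share their scaling.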

How the data were processed

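Per the labels' protocols, colorectal small RNA went through Ion Proton sequencing. The submitters' processing notes name BWA and the build mm10 (GRCm38). The deposited table holds raw whole-number counts for 1915 mature miRNAs, per the file headers. The counting tool and its treatment of multiply matching reads are not given in the sources. The labels give the groups and a mouse of its own for each column. Total counts of 3206127 to 15280434 set the precision, and 3 counts, the most a count of 0 allows, equal 0.331 to 0.638 CPM.

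The main test was edgeR 4.0.16 (R 4.3.3) on these counts: filterByExpr, TMM, robust dispersions, glmQLFit and glmQLFTest, two-sided, Benjamini-Hochberg adjustment over 878 miRNAs at 0.05. The SE is the log2 fold change divided by the square root of F. Ratios used counts with 0.5 added and exact permutation over mice. Log2 levels used CPM + 0.5. DESeq2 1.42.0 and limma-voom (limma 3.58.1) were alternatives. The script was tested on simulated data, with 5 false calls among 125.

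Named were all members, up to 4 abundant members of each of 9 lists (skeletal muscle: all tested) and the 5 miRNAs most like miR-203-3p and miR-205-5p. The members and lists were chosen with earlier results of these data known. miR-205-3p follows from the rule for members; its alternatives and its arm ratio were added after seeing the data. Sequences and their GRCm38.p6 positions come from RefSeq, and genes from GENCODE M21.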

Additional observations from a re-analysis of the deposited data

How the results depend on the processing

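The log2 difference of miR-203-3p was positive under all 16 alternatives (0.22 to 1.14 with 1 mouse left out) and passed only without M3 and M4 (0.78). miR-203-5p was positive under all 15 (0.34 to 0.83 with 1 mouse left out) and never passed; the filter at 50 CPM left it and miR-205-3p out. miR-205-5p changed sign under upper quartile scaling (0.025), with total counts only (0.25), with the filter at 50 CPM (0.19), in limma-voom (0.67) and without M3 and M4 (1.09); with 1 mouse left out it ran from -0.49 to 1.68 and was positive without M3 (1.68), M5 (0.11) or M6 (0.13). DESeq2 gave it -0.03 and no p. miR-205-3p ran from -1.99 to 0.61 with 1 mouse left out, positive without M3 (0.61) or M5 (0.10). Leaving out the TMM factors, which is all that the setting of total counts only changes, moved the median of all tested miRNAs from -0.03 to 0.62. It moved miR-203-3p to 1.04 and miR-203-5p to 1.08. The causes of the shifts under the other settings were not tested.

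The number of miRNAs called, 20 here, was 43 with total counts only, 64 with no filter, 0 with the filter at 50 CPM (61 at an unadjusted p under 0.05), 111 in DESeq2, 0 in limma-voom (216 at an unadjusted p under 0.05), 576 without M3 and M4, and 0 (without M1, M5 or M6) to 237 (without M4) with 1 mouse left out. With 1 mouse left out, the group difference in log2 ratio of miR-203-3p to miR-203-5p ran from -0.055 (without M1) to 0.35. That of miR-203-3p to miR-200c-3p ran from 0.032 to 0.78, and that of miR-205-5p to miR-200c-3p from -0.23 (without M1) to 1.23. That of miR-205-5p to miR-203-3p ran from -0.38 to 0.45 (0.45 without M3, 0.016 without M5, 0.023 without M6). That of miR-205-5p to miR-205-3p ran from 0.68 (without M5) to 2.26 (without M4). Without M3 and M4 the differences were 0.36 for miR-203-3p to miR-203-5p, 0.29 for miR-205-5p to miR-203-3p and 2.59 for miR-205-5p to miR-205-3p. For miR-203-3p the difference was 0.84 over miR-200b-3p and 1.27 over the miR-200 family sum. No paired analysis was possible because the labels give each mouse its own number, and the 2 groups share none.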

Other observations

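Red blood cell miRNAs (4 tested, 0 called, 2 higher at an unadjusted p under 0.05 against 23.2% of all tested miRNAs, median log2 difference 1.50) had a summed level of 375, 298 and 577 CPM (healthy M1, M2, M3) and of 486, 1896 and 1071 CPM (M4, M5, M6). miR-451a, made in red blood cell precursors, had 1.45 (SE 0.53). Nerve miRNAs (7 tested, 0 called, 4 lower at an unadjusted p under 0.05, median -1.01) had 1557, 1751 and 861 CPM (healthy) and 632, 373 and 368 CPM (CRC), with miR-124-3p at -2.34 (SE 0.60) and miR-138-5p at -1.72 (SE 0.49). The Hox cluster list (9 tested) held 1 miRNA that rose, miR-615-3p (5.38, SE 1.07, adjusted p = 0.0451 in edgeR), named after its value was seen, and 0 that fell; over all tested miRNAs 2.28% were called. Its abundant members were miR-10a-5p (-0.71, SE 0.38) and miR-10b-5p (-0.42, SE 0.40), and its summed level was 5536, 5607 and 3582 CPM (healthy) and 3764, 3296 and 3588 CPM (CRC).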
